A study of Mus musculus with 27 samples.

Results

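Cyclins, cyclin-dependent kinases (CDKs), E2F transcription factors and minichromosome maintenance (MCM) proteins form the core machinery that drives a cell through DNA replication and mitosis. The genes described here were taken by symbol: A, B, D and E cyclins, numbered CDKs, E2f1 to E2f8, Mcm2 to Mcm9 and Mcm10. The symbol pattern matched 50 of the 53379 genes in the deposited table. By role these were 6 subunits of the MCM2-7 helicase, 3 other MCM genes, 3 activator, 3 repressor and 2 atypical E2Fs, 7 cyclins of types A, B and E, 3 D cyclins, 4 cell-cycle kinases, 7 transcription kinases and 8 other CDKs. The remaining 4 rows were Ccnb1ip1, which is no cyclin but a ligase of meiotic recombination, and the pseudogenes Ccnb1-ps, Ccnb2-ps and Ccnd3-ps. Of the 50, 45 reached a level of at least 1 TPM (a transcript level corrected for length and scaled to the same total in every library) in at least 3 of the 27 libraries and were tested. Ccnb3, Cdk15 and the 3 pseudogenes did not.

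In a dividing cell, D cyclins with CDK4 or CDK6 and E cyclins with CDK2 phosphorylate the retinoblastoma family, which frees E2F factors to switch on genes of the replication machinery. MCM2 to MCM7 assemble as a ring on replication origins and become the motor of the replicative helicase. A and B cyclins with CDK1 then carry the cell through mitosis, whereas CDK7, CDK8, CDK9, CDK11, CDK12, CDK13 and CDK19 act mainly on transcription by RNA polymerase II. Mouse embryonic stem cells are known for a short G1 phase and for high cyclin E and CDK2 activity.

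The cells were E14, a mouse embryonic stem cell line grown on gelatin with LIF. Every culture was transfected with siRNA, transfected again after 24 h and taken at 48 h. The siRNAs were siPTBP1+siPTBP2, directed against Ptbp1 and Ptbp2 together, siPTBP1, directed against Ptbp1 alone, and siGFP, directed against eGFP, as the negative control. The product of Ptbp1 binds polypyrimidine tracts in RNA and regulates splicing, and the series was made to study the retained introns it regulates. PolyA+ RNA of chromatin (CH), nucleoplasm (NP) and cytoplasm (CY) was sequenced from each treatment in 3 replicates that the series calls biological, which gave 9 groups. In what follows, values of the same group are given in the order of replicates 1, 2 and 3.

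Ptbp1, the targeted gene, was lower in both knockdowns in CY. It had 200, 114 and 113 TPM in siPTBP1+siPTBP2 cells, 144, 115 and 110 TPM in siPTBP1 cells and 502, 534 and 611 TPM in siGFP cells. The difference from siGFP in CY was -1.99 on the log2(TPM + 1) scale for siPTBP1+siPTBP2 (limma, adjusted p = 0.00249) and -2.15 for siPTBP1 (limma, adjusted p = 0.000853). Chromatin showed less: 287 ± 61.8 TPM in siPTBP1+siPTBP2 cells, 243 ± 50.7 TPM in siPTBP1 cells and 514 ± 156 TPM in siGFP cells (SD, n = 3 each), with limma adjusted p-values of 0.367 and 0.16, or 0.0303 and 0.00541 with replicate number as a block. Ptbp2 had 5.43 ± 3.45 TPM in siPTBP1+siPTBP2 cells, 13.9 ± 8.99 TPM in siPTBP1 cells and 11.3 ± 6.76 TPM in siGFP cells in CY (SD, n = 3 each), and its fall in the double knockdown passed the test only with the block (limma, adjusted p = 1 without it and 0.00113 with it). In NP the fall was -0.78 (limma with the block, adjusted p = 0.00714). In CH, where Ptbp2 was highest, it had 54.9 ± 27.3 TPM in siPTBP1+siPTBP2 cells and 67.5 ± 38.7 TPM in siGFP cells (SD, n = 3 each). The difference there was -0.21 and was not called even with the block (limma, adjusted p = 0.587). Libraries held 17301 to 19509 genes at 1 TPM or more in CH, 13849 to 14999 in NP and 11837 to 13478 in CY, with read depth not known from TPM. The 7 embryonic stem cell markers, Pou5f1, Nanog, Sox2, Zfp42, Esrrb, Klf4 and Tfcp2l1, summed to 740 to 2606 TPM per library and none was at 0. Nuclear RNAs marked the fractions: Malat1 had 392 to 1192 TPM in CH, 23.9 to 108 TPM in NP and 3.91 to 16.4 TPM in CY.

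Replicate 1 stood apart from replicates 2 and 3 for many of these genes, in every treatment and fraction. Replicate 1 was the lowest of its group in all 9 groups for 11 of the 45 tested members, among them Ccnb1, Ccna2, Cdk7, Cdk8, Cdk13, Cdk17 and Mcm8. It was the highest in all 9 groups for 3 members, Ccnd3, Cdk4 and Mcm5. The share of all genes with replicate 1 lowest or highest in all 9 groups is not given, so these counts mark no trait of the members. Averaged over the groups, replicate 1 differed from the mean of the others by -1.38 (log2) for Cdk17 and by 0.95 for Ccnd3. Across the 45 members this deviation rose with the GC content of the transcript (Spearman's rho 0.71 over genes), and across 20581 tested genes the rho was 0.61. Genes are not independent replicates and share their libraries, so these are descriptions. The within-group SDs below carry this split between replicates, and the results most affected are also given with replicate number as a block or without replicate 1.

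**Figure D1:**
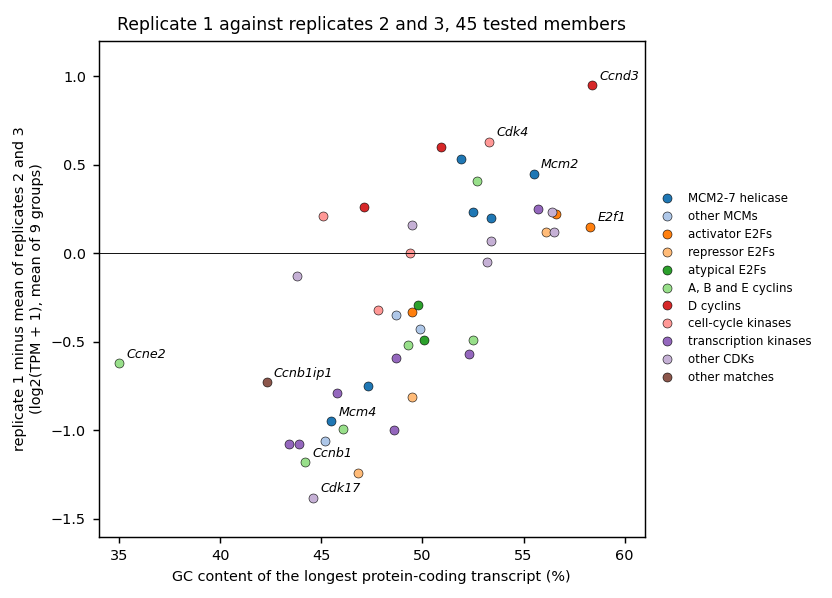
Mean difference of replicate 1 from replicates 2 and 3 (log2(TPM + 1), averaged over the 9 groups) against the GC content (%) of the longest protein-coding transcript for the 45 tested members, coloured by role. Members with GC-poor transcripts such as Cdk17 (-1.38) and Ccnb1 (-1.18) lay low in replicate 1, and GC-rich ones such as Ccnd3 (0.95) and Cdk4 (0.63) lay high.

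Most of the machinery was detected throughout, as 42 members had at least 1 TPM in all 27 libraries, at levels that differed widely. In the cytoplasm of siGFP cells the kinase gene Cdk4 was the highest member at 744 ± 62.9 TPM (SD, n = 3), followed by Mcm5 at 476 ± 54.9 TPM and Mcm7 at 319 ± 38 TPM. Mcm7 and the next gene, Mcm2 at 311 ± 16.1 TPM, lay within 1 SD of each other. Of the E cyclins, Ccne1 stood at 248 ± 20.4 TPM and Ccne2 at 1.97 ± 1.17 TPM. D cyclins were lower than Ccne1 and higher than Ccne2, with Ccnd3 at 120 ± 21.1 TPM, Ccnd1 at 68.9 ± 9.26 TPM and Ccnd2 at 16.2 ± 4.38 TPM. E2f4, a repressor that works with the pocket proteins, led its family at 196 ± 17 TPM, ahead of the activator E2f1 at 26 ± 4.57 TPM. The lowest members in the fraction were Ccnb3, the pseudogenes and Cdk15, all under 1 TPM in their siGFP cytoplasm, together with Cdk14 at 0.683 ± 0.405 TPM.

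Promoter windows from RefSeq (GRCm38.p6, 250 bases before to 50 bases after a gene start) were found for 37 of the 50 members, 42 windows in all. The E2F octamers TTTCCCGC, TTTCGCGC, TTTGCCGC and TTTGGCGC, searched on both strands with overlaps allowed, were present in 10 of the 42 windows (23.8%) and in 744 of all 32851 windows (2.26%). Those 10 members were Mcm3, Mcm5, Mcm6, Mcm7, Mcm8, E2f2, E2f3, E2f7, Cdk1 and Cdk2. The cell cycle homology element CHR (TTTGAA or TTCGAA, both strands) was in 8 member windows (19%), against 19.2% of all windows. CCAAT was in 57.1% of member windows and 37.4% of all. A match is a string of letters and does not show that a factor binds. Mcm6 and Mcm7 are shown as helicase genes with more than 1 E2F octamer, and Cdk1 and Ccnb2 as mitotic genes with 2 CHR elements, and each is written 5′ to 3′ on the strand of its gene. Capitals mark E2F octamers in the MCM genes, where overlapping octamers run together, and CHR elements in the other genes.
Mcm6, chr1:128359656-128359955, minus strand: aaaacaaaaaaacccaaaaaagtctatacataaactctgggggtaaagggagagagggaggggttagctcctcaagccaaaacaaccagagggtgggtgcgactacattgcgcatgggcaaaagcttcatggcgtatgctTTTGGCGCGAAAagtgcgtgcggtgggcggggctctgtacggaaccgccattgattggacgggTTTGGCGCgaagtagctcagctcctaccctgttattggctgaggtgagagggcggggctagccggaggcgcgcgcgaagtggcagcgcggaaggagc
Mcm7, chr5:138171834-138172133, minus strand: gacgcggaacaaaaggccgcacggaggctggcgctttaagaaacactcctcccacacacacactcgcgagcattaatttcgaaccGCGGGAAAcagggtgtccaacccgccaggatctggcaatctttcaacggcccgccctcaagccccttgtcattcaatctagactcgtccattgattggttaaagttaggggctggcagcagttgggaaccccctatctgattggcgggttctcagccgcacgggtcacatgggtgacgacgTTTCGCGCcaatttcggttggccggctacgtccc
Cdk1, chr10:69352863-69353162, minus strand: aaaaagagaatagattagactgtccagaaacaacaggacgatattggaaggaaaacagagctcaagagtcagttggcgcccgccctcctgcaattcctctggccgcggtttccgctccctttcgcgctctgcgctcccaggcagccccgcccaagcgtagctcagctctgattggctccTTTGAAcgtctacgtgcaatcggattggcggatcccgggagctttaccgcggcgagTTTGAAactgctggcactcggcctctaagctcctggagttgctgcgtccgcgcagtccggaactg
Ccnb2, chr9:70421505-70421804, minus strand: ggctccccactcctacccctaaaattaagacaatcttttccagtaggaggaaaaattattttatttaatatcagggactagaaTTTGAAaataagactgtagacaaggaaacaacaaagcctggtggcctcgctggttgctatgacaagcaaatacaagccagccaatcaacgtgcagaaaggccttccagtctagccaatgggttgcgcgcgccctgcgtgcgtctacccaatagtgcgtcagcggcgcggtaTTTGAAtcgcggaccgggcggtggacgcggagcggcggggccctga

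Between chromatin and cytoplasm the counts of calls are given by role, and no difference between roles was tested. In siGFP cells 24 of the 45 tested members were called higher in CH than in CY, 2 were called lower and 19 were not called (limma on log2(TPM + 1), called at an adjusted p under 0.05 over all 20611 genes tested). Of all genes, 57.9% were called higher and 8.08% lower, so the count of members is close to that background. The median difference was 0.84 (log2) over the members and 0.95 over all genes. Each gene is therefore set against 0.95 as well as against 0. Genes can pass the filter through CH libraries alone. At 1 TPM or more, CH libraries held 17301 to 19509 genes and CY libraries 11837 to 13478. The difference was also higher for genes with a lower level in CY (Spearman's rho -0.39 over all genes). A place under 0.95 thus does not set an abundant member apart from other abundant genes. Dividing each library by a median-ratio factor moved the median of all genes to 0.34 and the members' calls to 8 higher and 15 lower, against 38.9% and 21.8% of all genes. With replicate number as a block 28 were called higher and 5 lower, against 65.4% and 11.5% of all genes. Gene levels do not separate spliced from unspliced RNA, and TPM gives shares of a fraction's RNA, so more RNA of a gene and less of all other RNA cannot be told apart. Markers of fibroblasts moved with the fraction: Col1a1, Col1a2, Col3a1 and Thy1, 4 of 4 above 0 in every library, summed to 81 to 154 TPM in CH, 30.7 to 49.6 TPM in NP and 9.19 to 13.8 TPM in CY of siGFP cells, and their part in the differences between fractions was not tested.

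**Figure D2:**
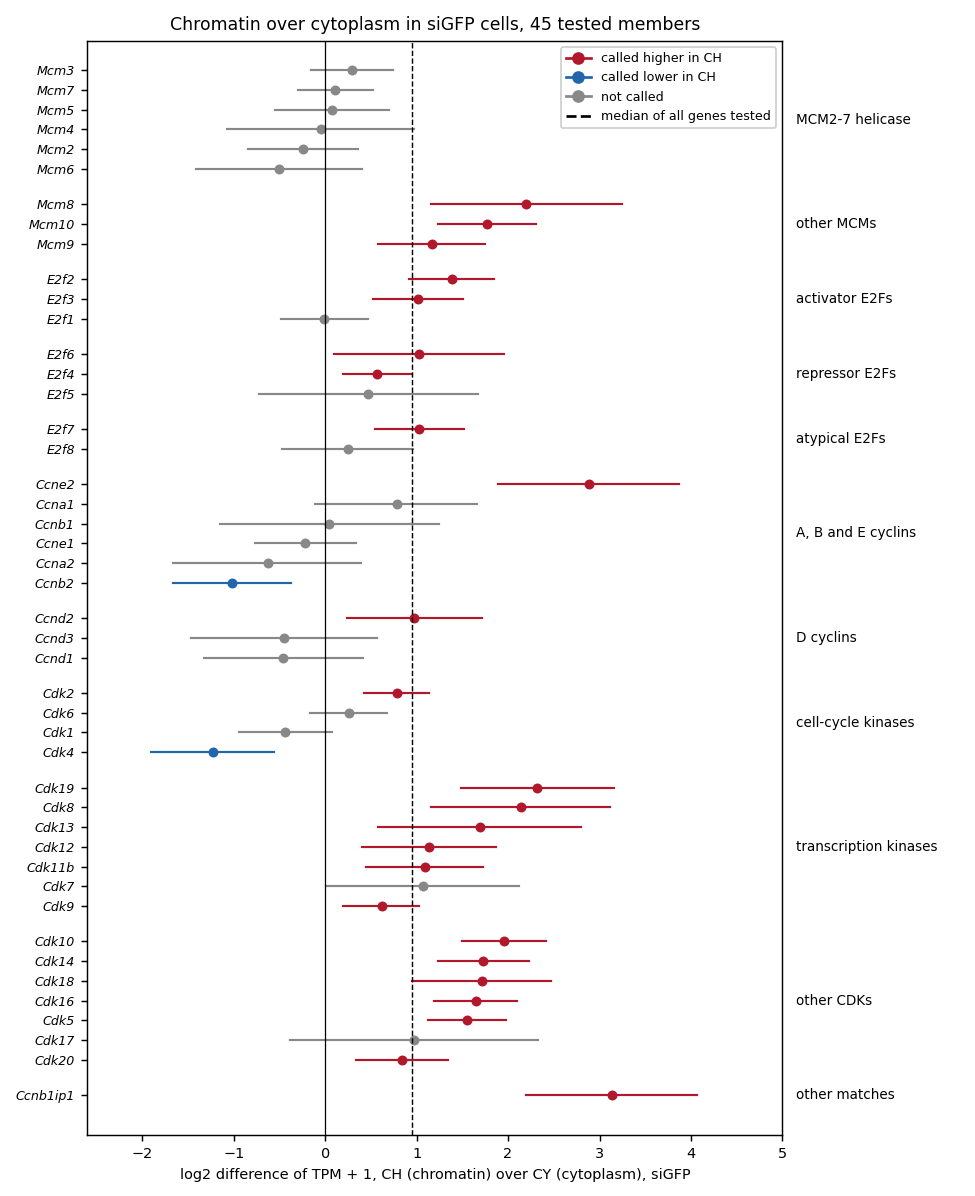
Log2 difference of TPM + 1 between CH and CY in siGFP cells for the 45 tested members, grouped by role; points are limma estimates from 3 libraries a fraction, lines are 95% intervals, and the dashed line is the median of all genes (0.95). All 6 MCM2-7 genes lay below the dashed line and were not called, whereas Mcm8, Mcm9, Mcm10 and 6 of 7 transcription kinases lay above it; after median-ratio scaling 5 of the 6 MCM2-7 genes were called lower and 2 of the 7 transcription kinases higher.

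None of the 6 MCM2-7 genes was called between CH and CY, and none had an unadjusted p under 0.05 in limma, in the fit of all 3 replicates of siGFP cells. Without replicate 1 in all groups Mcm2 (-0.58, limma, adjusted p = 0.0273) and Mcm6 (-0.61, limma, adjusted p = 0.000849) were called lower in CH, 2 of 7 members then called lower (11.5% of all genes). The differences of the 6 genes over all replicates ran from -0.50 for Mcm6 to 0.29 for Mcm3, all under the median of all genes, and after median-ratio scaling all 6 were negative (-1.57 to -0.78) and 5 were called lower. Mcm5, the most abundant helicase subunit in the cytoplasm, had 703, 408 and 564 TPM in siPTBP1+siPTBP2 cells, 534, 386 and 514 TPM in siPTBP1 cells and 689, 338 and 532 TPM in siGFP cells in CH. Mcm5 in NP had 379, 204 and 250 TPM in siPTBP1+siPTBP2 cells, 384, 203 and 255 TPM in siPTBP1 cells and 382, 239 and 320 TPM in siGFP cells. Mcm5 in CY had 732, 447 and 472 TPM in siPTBP1+siPTBP2 cells, 569, 421 and 466 TPM in siPTBP1 cells and 539, 436 and 454 TPM in siGFP cells. The CH and CY libraries of Mcm5 overlapped in each treatment, while NP was the lowest fraction in all 9 sets of 1 treatment and 1 replicate number. The limma difference of Mcm5 between CH and CY in siGFP cells was 0.07 (95% interval -0.55 to 0.70).

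The MCM genes outside the ring, Mcm8, Mcm9 and Mcm10, were all called higher in CH. Mcm8, which acts with Mcm9 in homologous recombination, had 18.5, 42.7 and 30.5 TPM in CH, against 3.38, 6.35 and 7.6 TPM in CY of siGFP cells, a difference of 2.20 (limma, adjusted p = 0.000599). The 2 sets did not overlap. Mcm9 had 7.46, 13.9 and 12.4 TPM in CH, against 2.79, 6.38 and 4.35 TPM in CY of the same cells, a difference of 1.17 (limma, adjusted p = 0.00112). Leaving replicate 3 out of all groups ended the call of Mcm9, at 1.08. After median-ratio scaling Mcm8 and Mcm10 kept their calls (1.23 and 0.70) and Mcm9 stood at 0.24 without one. The difference between the ring subunits and the other MCM genes was not tested.

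Mcm10, a loading factor of the replisome, was the most abundant of these 3. Mcm10 in CH had 214, 282 and 256 TPM in siPTBP1+siPTBP2 cells, 195, 262 and 228 TPM in siPTBP1 cells and 205, 237 and 253 TPM in siGFP cells. Mcm10 in NP had 40.1, 56.4 and 56.2 TPM in siPTBP1+siPTBP2 cells, 60.9, 53.5 and 55.8 TPM in siPTBP1 cells and 66.7, 62.1 and 68.3 TPM in siGFP cells. Mcm10 in CY had 28, 72.6 and 76 TPM in siPTBP1+siPTBP2 cells, 67.2, 70.3 and 75.8 TPM in siPTBP1 cells and 54.9, 71.2 and 77 TPM in siGFP cells. Every CH library exceeded every NP and CY library. In siGFP cells the difference of CH from CY was 1.77 (95% interval 1.23 to 2.31, limma, adjusted p = 5.15e-06).

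**Figure D3:**
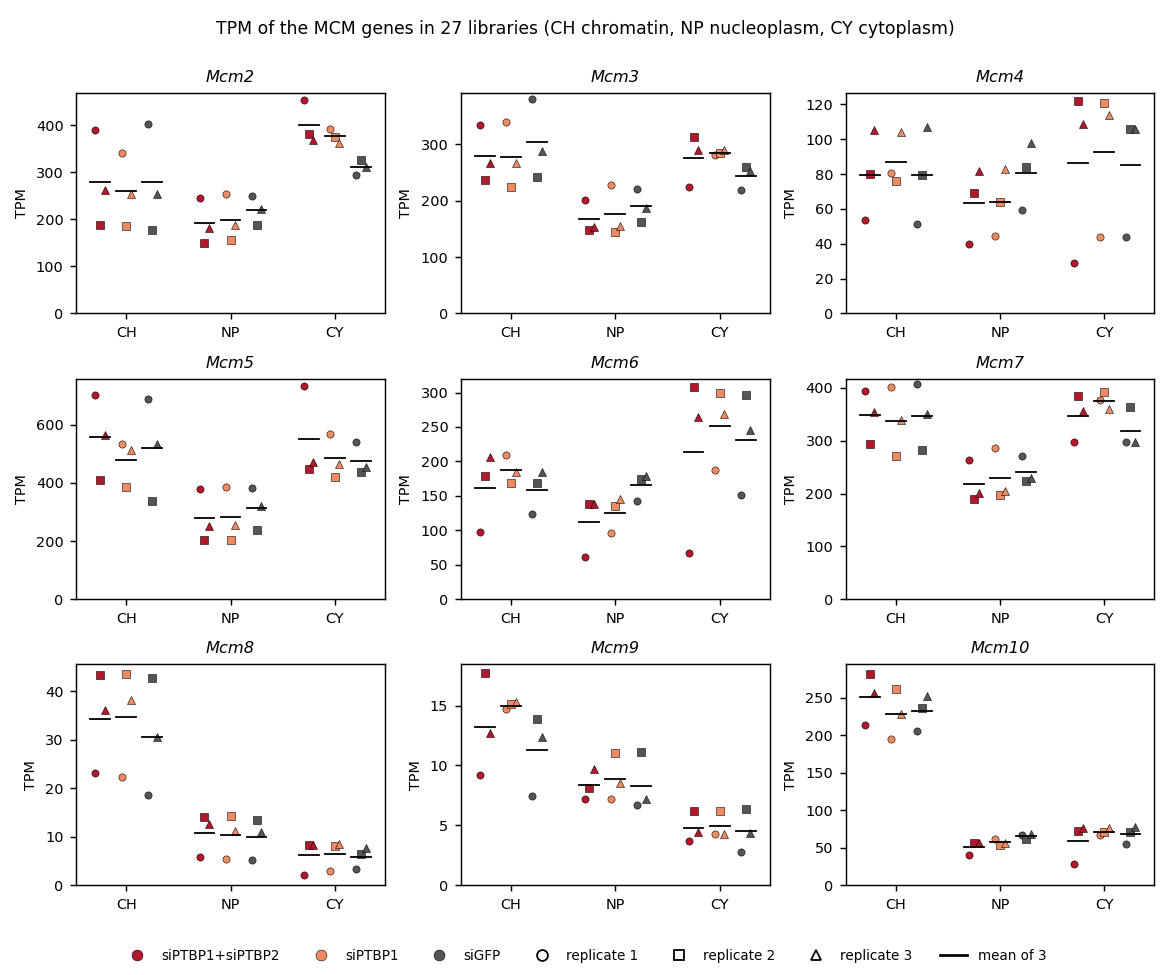
TPM of the 9 MCM genes in each of the 27 libraries by fraction, with treatments in colours, replicates as symbols and bars at the mean of 3. The CH and CY libraries of Mcm2 to Mcm7 overlap in every treatment, apart from Mcm2 in siPTBP1 cells, while Mcm8 and Mcm10 are highest in CH in every treatment; replicate 1 (circles) is the lowest library of every group for Mcm8.

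Among the activator E2Fs, E2f2 and E2f3 were called higher in CH and E2f1 was not. E2f2 had 19, 17.4 and 19.5 TPM in CH, against 6.5, 7.03 and 6.01 TPM in CY of siGFP cells, a difference of 1.39 (limma, adjusted p = 1.52e-05). E2f3 had 21.8, 24.1 and 33.2 TPM in CH, against 8.72, 13.6 and 15.8 TPM in CY of these cells, a difference of 1.01 (limma, adjusted p = 0.000846). For both genes the lowest CH library lay above the highest CY library, and after median-ratio scaling neither was called (0.41 and 0.00).

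E2f1, the founding member of the family, showed no such gap. E2f1 in CH had 32.6, 35.3 and 25.1 TPM in siPTBP1+siPTBP2 cells, 23.7, 31.8 and 27.5 TPM in siPTBP1 cells and 26.7, 30.8 and 20.4 TPM in siGFP cells. E2f1 in NP had 20.4, 19.6 and 14.9 TPM in siPTBP1+siPTBP2 cells, 20.7, 21 and 13.4 TPM in siPTBP1 cells and 17, 18.1 and 13.3 TPM in siGFP cells. E2f1 in CY had 46.9, 33.2 and 29 TPM in siPTBP1+siPTBP2 cells, 31.6, 31.1 and 26.2 TPM in siPTBP1 cells and 26.3, 30.5 and 21.3 TPM in siGFP cells. Its CH and CY libraries overlapped in every treatment, and the difference in siGFP cells was -0.01 (95% interval -0.48 to 0.47), which fell to -1.04 and was called lower after median-ratio scaling.

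Of the repressor E2Fs, E2f4 and E2f6 were called higher in CH and E2f5 was not. E2f4 in CH had 315, 254 and 336 TPM in siPTBP1+siPTBP2 cells, 290, 269 and 326 TPM in siPTBP1 cells and 310, 251 and 315 TPM in siGFP cells. E2f4 in NP had 186, 121 and 150 TPM in siPTBP1+siPTBP2 cells, 180, 123 and 144 TPM in siPTBP1 cells and 186, 136 and 176 TPM in siGFP cells. E2f4 in CY had 212, 201 and 229 TPM in siPTBP1+siPTBP2 cells, 203, 195 and 230 TPM in siPTBP1 cells and 177, 204 and 208 TPM in siGFP cells. In siGFP cells the CH libraries of E2f4 did not overlap those of CY, and the difference was 0.57 (limma, adjusted p = 0.0101), below the median of all genes and -0.50 after median-ratio scaling. The call of E2f4 ended without replicate 1 in all groups (0.45) and without replicate 3 (0.55). E2f6, which represses without the pocket proteins, had 17.8, 24.5 and 37.8 TPM in CH, against 6.89, 14.3 and 17.1 TPM in CY of siGFP cells, a difference of 1.03 (limma, adjusted p = 0.0474). Its call ended when any of 4 single libraries was left out, at 0.75 without replicate 3 of CH, 1.05 without replicate 2 of CH, 0.67 without replicate 1 of CY and 1.15 without replicate 2 of CY, and also with no filter on low genes (1.03) and with a pseudocount of 0.1 (1.09). E2f5 stood at 0.47 (limma, adjusted p = 0.478, and 0.0262 with the block).

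E2f7 and E2f8 are atypical E2Fs that repress without a DP partner. E2f7 had 20.5, 23.8 and 29.2 TPM in CH, against 7.78, 14.1 and 13.3 TPM in CY of siGFP cells and was called higher in CH (1.03, limma, adjusted p = 0.000639; 0.02 and not called after scaling). E2f8 in CH had 23.5, 29.3 and 38.9 TPM in siPTBP1+siPTBP2 cells, 29.8, 33.4 and 36.1 TPM in siPTBP1 cells and 21.1, 23.3 and 34.9 TPM in siGFP cells. E2f8 in NP had 16.6, 15 and 22.5 TPM in siPTBP1+siPTBP2 cells, 18, 16.9 and 23.8 TPM in siPTBP1 cells and 22.1, 17 and 26.6 TPM in siGFP cells. E2f8 in CY had 11, 24.8 and 30.2 TPM in siPTBP1+siPTBP2 cells, 14.4, 25.9 and 31.9 TPM in siPTBP1 cells and 14, 24.7 and 28.8 TPM in siGFP cells. The CH and CY ranges of E2f8 overlapped in siGFP cells, and its difference there was 0.25 (95% interval -0.47 to 0.96).

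Of the E cyclins, Ccne2 was called higher in CH and Ccne1 was not called. Ccne2 had 14.8, 25.3 and 20.8 TPM in CH, against 1.52, 1.1 and 3.3 TPM in CY of siGFP cells, with no overlap, and its difference of 2.88 (95% interval 1.89 to 3.87, limma, adjusted p = 2.05e-05) was larger than that of 90.8% of all genes tested. It kept its call after median-ratio scaling, at 2.01. Ccne1 in CH had 286, 177 and 220 TPM in siPTBP1+siPTBP2 cells, 299, 160 and 211 TPM in siPTBP1 cells and 277, 146 and 238 TPM in siGFP cells. Ccne1 in NP had 269, 189 and 212 TPM in siPTBP1+siPTBP2 cells, 279, 175 and 211 TPM in siPTBP1 cells and 239, 156 and 217 TPM in siGFP cells. Ccne1 in CY had 309, 252 and 301 TPM in siPTBP1+siPTBP2 cells, 336, 234 and 309 TPM in siPTBP1 cells and 255, 225 and 264 TPM in siGFP cells. The CH and CY libraries of Ccne1 overlapped in every treatment, and the difference between them in siGFP cells was -0.22 (95% interval -0.77 to 0.34). The difference between the paralogs was not tested.

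Ccnb2, a mitotic partner of CDK1, was 1 of the 2 members called lower in CH. It had 39.4, 71.8 and 58 TPM in CH, against 77.6, 150 and 121 TPM in CY of siGFP cells, so every CH library lay under every CY library, and the difference was -1.02 (limma, adjusted p = 0.0067; -2.08 after median-ratio scaling). Leaving replicate 3 out of all groups kept the direction but ended the call, at -1.0. Ccnb1 stood at 0.04 (95% interval -1.15 to 1.24) and Ccna2 at -0.63 (limma, adjusted p = 0.264, and 0.0184 with the block). Ccna1, a cyclin of meiosis, was scarce, with 2.8 ± 2.21 TPM in CH and 1.05 ± 0.545 TPM in CY (SD, n = 3 each), and was called higher only with the block (0.78, limma, adjusted p = 0.113 without it and 0.0272 with it).

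Of the D cyclins, which pair with CDK4 and CDK6, only Ccnd2 was called higher in CH. It had 44.3, 19.1 and 38.2 TPM in CH, against 17, 11.5 and 20.1 TPM in CY of siGFP cells, and 1 CH library fell inside the CY range. The difference of Ccnd2 was 0.97 (limma, adjusted p = 0.0197), but -0.05 after median-ratio scaling, and the call ended without replicate 1 of CH (0.74), replicate 3 of CH (0.85) or replicate 2 of CY (0.76). Ccnd3, the most abundant D cyclin, had 178, 46.5 and 66.5 TPM in siPTBP1+siPTBP2 cells, 143, 49.1 and 65.4 TPM in siPTBP1 cells and 173, 52.1 and 71.5 TPM in siGFP cells in CH. Ccnd3 in NP had 157, 73.8 and 90.1 TPM in siPTBP1+siPTBP2 cells, 153, 73.6 and 94.8 TPM in siPTBP1 cells and 125, 74 and 89.5 TPM in siGFP cells. Ccnd3 in CY had 253, 116 and 145 TPM in siPTBP1+siPTBP2 cells, 165, 107 and 149 TPM in siPTBP1 cells and 139, 97.3 and 123 TPM in siGFP cells. Replicate 1 was the highest Ccnd3 library of every group, and the difference between CH and CY in siGFP cells was -0.45 (95% interval -1.47 to 0.57). Ccnd1 stood at -0.46 (limma, adjusted p = 0.341, and 0.0329 with the block).

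Cdk4, the partner of the D cyclins, was the member with the lowest ratio of chromatin to cytoplasm. Cdk4 in CH had 477, 222 and 272 TPM in siPTBP1+siPTBP2 cells, 515, 238 and 282 TPM in siPTBP1 cells and 459, 248 and 277 TPM in siGFP cells. Cdk4 in NP had 938, 554 and 633 TPM in siPTBP1+siPTBP2 cells, 917, 569 and 622 TPM in siPTBP1 cells and 744, 517 and 603 TPM in siGFP cells. Cdk4 in CY had 1320, 797 and 851 TPM in siPTBP1+siPTBP2 cells, 985, 758 and 850 TPM in siPTBP1 cells and 817, 713 and 703 TPM in siGFP cells. CH and CY did not overlap in any treatment. In siGFP cells the difference was -1.23 (95% interval -1.90 to -0.56, limma, adjusted p = 0.00208; -2.30 and called after median-ratio scaling), and only 3.69% of all genes tested had a lower one. Leaving replicate 3 out of all groups gave -1.18 and no call.

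The other cell-cycle kinases spread between. Cdk2, the partner of E and A cyclins, had 72.9, 78.2 and 88.6 TPM in CH, against 40.1, 52.4 and 46.6 TPM in CY of siGFP cells with no overlap, and was called higher in CH (0.78, limma, adjusted p = 0.000483), although this lies under the median of all genes and became -0.28 after median-ratio scaling. Cdk1, the mitotic kinase, stood at -0.44 (limma, adjusted p = 0.12, and 0.044 with the block), and Cdk6 at 0.26 (95% interval -0.17 to 0.68). All 4 cell-cycle kinases were under the median of all genes.

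Of the 7 transcription kinases, 6 were called higher in CH (57.9% of all genes) and 6 lay above the median of all genes. After median-ratio scaling 2 were called higher (38.9% of all genes), Cdk8 and Cdk19, and 6 of the 7 differences were above 0. Cdk19 had 7.69, 17 and 15.9 TPM in CH, against 0.87, 2.78 and 2 TPM in CY of siGFP cells, a difference of 2.32 (limma, adjusted p = 3.87e-05; 1.49 after scaling). Its paralog Cdk8, which like Cdk19 is a kinase of the Mediator complex, had 61.6, 119 and 109 TPM in CH, against 11.5, 26.5 and 27.3 TPM in CY, a difference of 2.14 (limma, adjusted p = 0.000449; 1.10 after scaling). Neither gene's fractions overlapped. Cdk13, an elongation kinase, had 22.7, 51.9 and 54.4 TPM in CH, against 7.28, 13.4 and 16.2 TPM in CY of these cells, a difference of 1.69 (limma, adjusted p = 0.00841), and lost its call without replicate 1 of CY (1.39).

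Cdk9, the kinase of the elongation factor P-TEFb, was the most abundant transcription kinase in the cytoplasm and the one with the smallest difference. Cdk9 in CH had 179, 169 and 210 TPM in siPTBP1+siPTBP2 cells, 168, 176 and 206 TPM in siPTBP1 cells and 164, 134 and 155 TPM in siGFP cells. Cdk9 in NP had 92, 59.4 and 63.8 TPM in siPTBP1+siPTBP2 cells, 91.3, 61.1 and 65.1 TPM in siPTBP1 cells and 89.5, 66 and 75.4 TPM in siGFP cells. Cdk9 in CY had 166, 116 and 113 TPM in siPTBP1+siPTBP2 cells, 140, 113 and 116 TPM in siPTBP1 cells and 101, 101 and 91.5 TPM in siGFP cells. In siGFP cells its CH libraries lay above its CY libraries, with a difference of 0.62 (limma, adjusted p = 0.0099), under the median of all genes and -0.45 after median-ratio scaling. Cdk11b (1.09) and Cdk12 (1.14) were also called, the last not without replicate 1 of CY (0.84), and Cdk7, the kinase of TFIIH, was called only with the block (1.07, limma, adjusted p = 0.07 without it and 1.6e-05 with it).

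The other CDKs, many of them best known from neurons or cilia, had similar counts. Of 7, 6 were called higher in CH (57.9% of all genes) and 6 lay above the median of all genes. Cdk10 and Cdk14, 2 of the 7, kept the call after median-ratio scaling (38.9% of all genes called higher). Cdk10 had 85.1, 120 and 105 TPM in CH, against 28, 27.2 and 22.1 TPM in CY of siGFP cells, a difference of 1.96 (limma, adjusted p = 1.11e-07; 0.90 after scaling). Cdk14 had 4.31, 5.57 and 3.75 TPM in CH, against 0.43, 1.15 and 0.47 TPM in CY of these cells, a difference of 1.73 (limma, adjusted p = 2.31e-06; 1.09 after scaling). Cdk18 had 49.8, 48.3 and 36.7 TPM in CH, against 11.1, 17.2 and 11.2 TPM in CY of the same cells, a difference of 1.71 (limma, adjusted p = 0.000336; 0.68 after scaling). In none of these 3 did the fractions overlap. Annotated genes of the same strand overlap the spans of 10 of the 45 tested members, namely Mcm7, Mcm9, Cdk8, Cdk9, Cdk10, Cdk12, Cdk13, Cdk14, Cdk17 and Ccnb1ip1, so their reads may be shared and their values are uncertain to that extent.

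Cdk16, the most abundant of this group in the cytoplasm, belongs with Cdk17 and Cdk18 to the PCTAIRE kinases. Cdk16 in CH had 151, 187 and 191 TPM in siPTBP1+siPTBP2 cells, 122, 192 and 157 TPM in siPTBP1 cells and 131, 180 and 176 TPM in siGFP cells. Cdk16 in NP had 45.7, 41.3 and 29.4 TPM in siPTBP1+siPTBP2 cells, 38.2, 43.4 and 28.4 TPM in siPTBP1 cells and 47.9, 50.1 and 39.5 TPM in siGFP cells. Cdk16 in CY had 56.9, 45.9 and 40.7 TPM in siPTBP1+siPTBP2 cells, 42.9, 46.5 and 37.1 TPM in siPTBP1 cells and 45.1, 59.5 and 48.5 TPM in siGFP cells. Every CH library exceeded every library of NP and CY, with a difference between CH and CY of 1.65 in siGFP cells (limma, adjusted p = 1.18e-06; 0.58 and not called after median-ratio scaling). Cdk5, a kinase of postmitotic neurons, was called too (1.55), as was Cdk20 (0.84, and -0.12 after scaling), whereas Cdk17 was called only with the block (0.97, limma, adjusted p = 0.195 without it and 0.00126 with it; -0.03 after scaling).

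Ccnb1ip1 had the largest difference of the 45. Ccnb1ip1 in CH had 201, 195 and 382 TPM in siPTBP1+siPTBP2 cells, 185, 175 and 353 TPM in siPTBP1 cells and 167, 170 and 349 TPM in siGFP cells. Ccnb1ip1 in NP had 45.6, 64.2 and 74.5 TPM in siPTBP1+siPTBP2 cells, 35.3, 49 and 61.6 TPM in siPTBP1 cells and 50.6, 66.4 and 73.9 TPM in siGFP cells. Ccnb1ip1 in CY had 8.25, 26.4 and 38.2 TPM in siPTBP1+siPTBP2 cells, 16.9, 26.6 and 32.1 TPM in siPTBP1 cells and 15.2, 26.5 and 32.5 TPM in siGFP cells. The difference of CH from CY in siGFP cells was 3.14 (limma, adjusted p = 3.43e-06; 2.08 and called after median-ratio scaling). Its span (chr14:50789248-50807732, GRCm38) holds Rpph1, the RNA of ribonuclease P, on the same strand, and Rpph1 itself had 11 ± 3.6 TPM in CH and 26.9 ± 14.1 TPM in CY (SD, n = 3 each), so the value of Ccnb1ip1 is uncertain.

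Few members were called between nucleoplasm and cytoplasm. In siGFP cells 2 of 45 members were called higher in NP than in CY (12.3% of all genes) and 0 lower (0.461% of all genes), and 4 had an unadjusted p under 0.05 in limma. The 2 were Ccnb1ip1 (1.38, limma, adjusted p = 0.0462) and Cdk14 (0.73, limma, adjusted p = 0.0494). With replicate number as a block 6 were called higher (23.5% of all genes), adding Ccne2, Mcm8, Mcm9 and Cdk19, and 3 lower (4.74% of all genes), namely Mcm5 (-0.62, limma, adjusted p = 0.00167), Mcm2 (-0.51, limma, adjusted p = 0.0457) and E2f1 (-0.66, limma, adjusted p = 0.00124). After median-ratio scaling 0 were called higher and 3 lower, against 10.5% and 3.79% of all genes. Without replicate 1 in all groups 7 members were called lower in NP (5.46% of all genes), namely Mcm2 (-0.65), Mcm3 (-0.55), Mcm6 (-0.61), Mcm7 (-0.53), Ccnb2 (-0.45), Cdk1 (-0.37) and Cdk9 (-0.44). The 6 MCM2-7 genes summed to 900 to 1327 TPM in the NP libraries, 1290 to 2054 TPM in CH and 1547 to 1956 TPM in CY. Mitochondrially encoded RNA took 9.31% to 22.5% of the TPM in NP, 0.511% to 1.68% in CH and 0.0416% to 0.111% in CY, and its part in the lower values of NP was not tested.

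Between CH and NP of siGFP cells 22 members were called higher in CH and 2 lower, against 46% and 5.48% of all genes, and 9 and 4 after median-ratio scaling, against 30% and 13.7% of all genes. With replicate number as a block 32 were called higher and 2 lower, against 57% and 9.95% of all genes, and the 32 held all 7 transcription kinases, all 7 other CDKs tested and 3 MCM2-7 genes. Without replicate 3 in all groups 12 were called higher and 0 lower. The share of all genes called in that smaller fit is not given, so the loss of calls cannot be set against that of other genes. Without the block the 2 lower ones were Cdk4 (-0.96, limma, adjusted p = 0.0166) and Ccnb2 (-0.77, limma, adjusted p = 0.0439). Of the helicase genes Mcm3 (0.66) and Mcm7 (0.51) were called higher in CH than in NP (limma, adjusted p = 0.0153 and 0.0354), at 0.00 and -0.15 after median-ratio scaling.

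In the knockdown cells the counts were close to those of siGFP cells. Between CH and CY, 28 members were called higher and 2 lower in siPTBP1+siPTBP2 cells (60.4% and 9.24% of all genes), and 26 higher and 3 lower in siPTBP1 cells (57.8% and 8.82% of all genes). After median-ratio scaling these became 10 higher and 15 lower in siPTBP1+siPTBP2 cells (40.2% and 23.6% of all genes) and 13 higher and 13 lower in siPTBP1 cells (40.1% and 21.9% of all genes). With the block 30 were called higher and 6 lower in siPTBP1+siPTBP2 cells (66.9% and 12.3% of all genes), and 29 higher and 7 lower in siPTBP1 cells (65.2% and 12.4% of all genes). In the fit without the block, 22 members were called higher in CH in all 3 treatments, Ccnb2 and Cdk4 were called lower, and 14 were called in none, all 6 MCM2-7 genes among them. In each treatment 57.8% to 60.4% of all genes were called higher. The share of all genes called alike in all 3 treatments is not given, so these shared counts are not set against a background and mark no trait of the members. With the block Mcm2 was called lower in siPTBP1+siPTBP2 cells (-0.58, limma, adjusted p = 0.00793) and in siPTBP1 cells (-0.57, limma, adjusted p = 0.00856), and without replicate 1 Mcm2 and Mcm6 were called lower in all 3 treatments. Cdk4 stood at -1.65 in siPTBP1+siPTBP2 cells, -1.40 in siPTBP1 cells and -1.23 in siGFP cells. Ccne2 stood at 2.19 in siPTBP1+siPTBP2 cells, 2.27 in siPTBP1 cells and 2.88 in siGFP cells. Whether the difference between CH and CY itself changed with knockdown is the test of the knockdown effect in CH minus that in CY: limma called 0 of 45 members for siPTBP1+siPTBP2 (0.0582% of all genes) and 0 for siPTBP1 (0.0437% of all genes), with 1 member at an unadjusted p under 0.05 in each, Cdk6 both times.

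In the fit without the replicate block no member passed the test in any fraction under knockdown of Ptbp1, with or without Ptbp2. For siPTBP1+siPTBP2 over siGFP, limma called 0 of 45 in CH (0.427% of all genes), 0 in NP (0.155%) and 0 in CY (0.243%). For siPTBP1 over siGFP it called 0 in CH (0.398%), 0 in NP (0.16%) and 0 in CY (0.228%). So few genes of any kind were called that a count of 0 among 45 is close to the background. At an unadjusted p under 0.05, limma had 1 member in each fraction for siPTBP1+siPTBP2, and 2 in CH, 1 in NP and 1 in CY for siPTBP1. With the block 1 member was called for siPTBP1 in CH (Cdk17), 1 for siPTBP1+siPTBP2 in CY (E2f2) and 0 in the other 4 contrasts. The block called 2.12% of all genes in CH, 1.84% in NP and 2.65% in CY for siPTBP1+siPTBP2, and 2.45% in CH, 1.88% in NP and 1.83% in CY for siPTBP1. Both knockdowns are set against the same siGFP libraries.

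Median estimates lay near those of all genes in CH and CY, and below them in NP. For siPTBP1+siPTBP2 the members' median difference was 0.12 in CH, -0.17 in NP and -0.05 in CY, against 0.07, -0.01 and 0.00 over all genes. For siPTBP1 it was 0.13 in CH, -0.16 in NP and 0.15 in CY, against 0.09, -0.01 and 0.06 over all genes. After median-ratio scaling the members' median in NP was -0.11 for siPTBP1+siPTBP2 and -0.09 for siPTBP1, against 0.01 over all genes in both. The precision differed by gene and by fit. Without the block, 95% intervals reached 0.65 to either side at the median and up to 1.36 at the widest. They lay inside a 2-fold change in both directions for 29 of 45 members in CH, 27 in NP and 26 in CY for siPTBP1+siPTBP2, and for 26 in CH, 27 in NP and 29 in CY for siPTBP1, so that fit does not exclude a 2-fold change of the remaining members. With the block the intervals reached 0.39 at the median and 0.64 at the widest, and lay inside a 2-fold change for 43 of 45 members in CH, 43 in NP and 44 in CY for siPTBP1+siPTBP2, and for 41 in CH, 44 in NP and 44 in CY for siPTBP1.

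**Figure D4:**
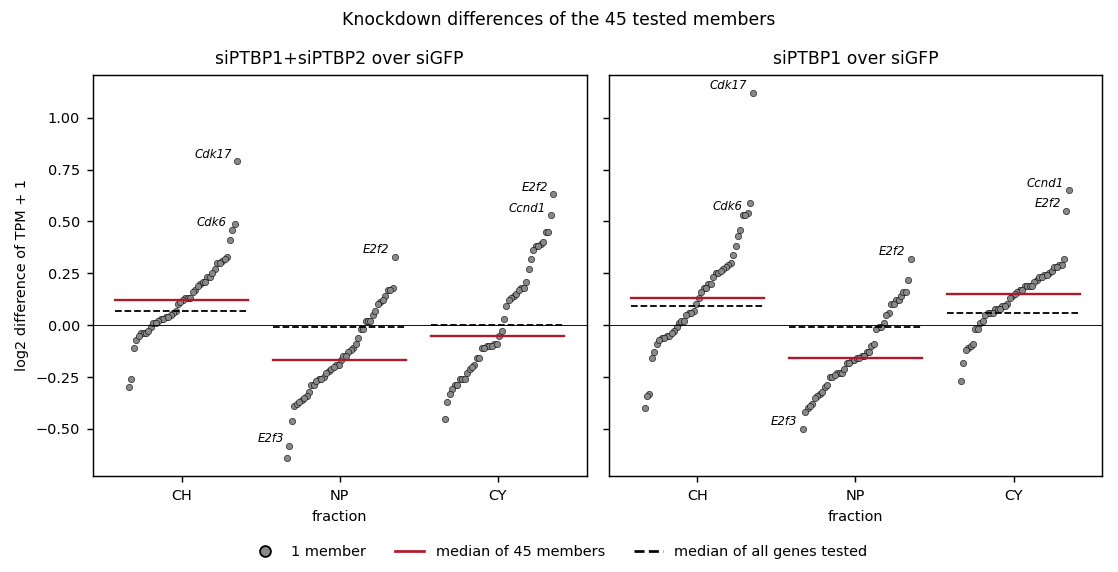
Log2 difference of TPM + 1 of siPTBP1+siPTBP2 (left) and siPTBP1 (right) from siGFP in each fraction; each point is 1 of the 45 tested members, spread sideways by rank, with red lines at the members' median and dashed lines at the median of all genes. No point was called by limma without the replicate block; Cdk17 is the highest in CH for both knockdowns (0.79 and 1.12).

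Cdk17, a PCTAIRE kinase, had the highest estimate of the members, on chromatin. Cdk17 in CH had 20.7, 51.2 and 69.1 TPM in siPTBP1+siPTBP2 cells, 33.9, 64.3 and 68.4 TPM in siPTBP1 cells and 14.7, 32.6 and 28 TPM in siGFP cells. Each knockdown library exceeded the siGFP library of its own replicate number, and the siPTBP1 and siGFP libraries did not overlap while the siPTBP1+siPTBP2 and siGFP libraries did. The difference from siGFP in CH was 0.79 for siPTBP1+siPTBP2 (limma, adjusted p = 1, and 0.105 with the block). For siPTBP1 it was 1.12 (95% interval -0.23 to 2.48, limma, adjusted p = 0.93), and with the block it passed (limma, adjusted p = 0.0165), as 1 of the 2.45% of all genes called with the block in that comparison. Without replicate 1 in all groups both knockdowns were called, at 0.95 for siPTBP1+siPTBP2 (limma, adjusted p = 0.00926) and 1.11 for siPTBP1 (limma, adjusted p = 0.00278). Cdk17 in NP had 16.8 ± 8.68 TPM in siPTBP1+siPTBP2 cells, 16.5 ± 6.92 TPM in siPTBP1 cells and 14.4 ± 4.75 TPM in siGFP cells (SD, n = 3 each). Cdk17 in CY had 14.6 ± 10.4 TPM in siPTBP1+siPTBP2 cells, 14.9 ± 7.47 TPM in siPTBP1 cells and 12.8 ± 6.19 TPM in siGFP cells (SD, n = 3 each). In NP and CY the groups differed by less than their spread.

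E2f2, an activator E2F, was the member with an unadjusted p under 0.05 in the cytoplasm of both knockdowns. E2f2 in CY had 13.9, 8.48 and 9.98 TPM in siPTBP1+siPTBP2 cells, 10.6, 8.47 and 11 TPM in siPTBP1 cells and 6.5, 7.03 and 6.01 TPM in siGFP cells. Neither knockdown overlapped siGFP. The difference from siGFP in CY was 0.63 for siPTBP1+siPTBP2 (limma, adjusted p = 0.604) and 0.55 for siPTBP1 (limma, adjusted p = 0.898). With the block the siPTBP1+siPTBP2 value was called (limma, adjusted p = 0.0463), as 1 of the 2.65% of all genes called in that comparison, and the siPTBP1 value was not (limma, adjusted p = 0.109). E2f2 in NP had 13.3, 9.18 and 9.47 TPM in siPTBP1+siPTBP2 cells, 12.4, 8.16 and 11.1 TPM in siPTBP1 cells and 7.78, 7.09 and 9.77 TPM in siGFP cells. E2f2 in CH had 32.2, 17.6 and 27.8 TPM in siPTBP1+siPTBP2 cells, 21, 20.8 and 19.6 TPM in siPTBP1 cells and 19, 17.4 and 19.5 TPM in siGFP cells. In those fractions the estimates were 0.41 in CH and 0.33 in NP for siPTBP1+siPTBP2, and 0.13 and 0.32 for siPTBP1, none called.

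E2f3, its paralog, had that p in the nucleoplasm of both knockdowns, with lower values. E2f3 in NP had 10.9, 9.79 and 9.84 TPM in siPTBP1+siPTBP2 cells, 10.2, 10.9 and 11.4 TPM in siPTBP1 cells and 15.7, 15.7 and 15.7 TPM in siGFP cells. Every knockdown library lay under the siGFP libraries, which agreed closely, but limma did not call the difference, with -0.58 for siPTBP1+siPTBP2 (limma, adjusted p = 0.79) and -0.50 for siPTBP1 (limma, adjusted p = 1). Cdk9 stood above siGFP without overlap in CH and CY of both knockdowns. Cdk9 differed from siGFP in CY by 0.40 for siPTBP1+siPTBP2 and 0.32 for siPTBP1 (limma, adjusted p = 1 in both). The other members with an unadjusted p under 0.05 were on chromatin. Cdk6 in CH had 27.7, 19.6 and 24.4 TPM in siPTBP1+siPTBP2 cells, 29.6, 22.8 and 23 TPM in siPTBP1 cells and 20.9, 12.3 and 18.7 TPM in siGFP cells. Its difference in CH was 0.46 for siPTBP1+siPTBP2 and 0.54 for siPTBP1 (limma, adjusted p = 0.62 and 0.455). Cdk14 in CH had 4.35, 4.09 and 6.98 TPM in siPTBP1+siPTBP2 cells, 7.77, 6.89 and 6.19 TPM in siPTBP1 cells and 4.31, 5.57 and 3.75 TPM in siGFP cells, and its difference for siPTBP1 was 0.53 (limma, adjusted p = 0.691).

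**Figure D5:**
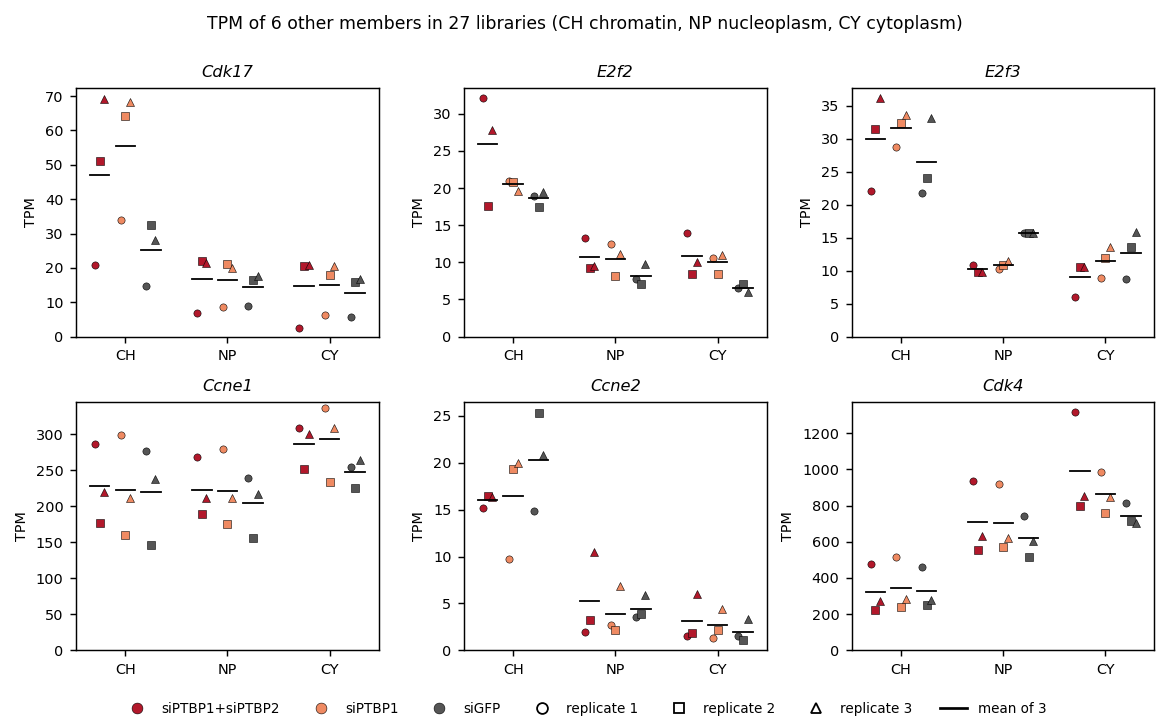
TPM of Cdk17, E2f2, E2f3, Ccne1, Ccne2 and Cdk4 in each of the 27 libraries by fraction, with treatments in colours, replicates as symbols and bars at the mean of 3. Cdk17 is higher in CH of both knockdowns than of siGFP in each replicate, Ccne2 is highest in CH, and Cdk4 is lowest in CH in every treatment.

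By role the knockdown estimates had no common direction across the fractions. The MCM2-7 genes ran from -0.11 to 0.13 in CH, from -0.64 to -0.15 in NP and from -0.33 to 0.36 in CY for siPTBP1+siPTBP2, and from -0.13 to 0.26 in CH, from -0.42 to -0.09 in NP and from 0.02 to 0.28 in CY for siPTBP1. All 6 were thus below 0 in NP in both knockdowns, without a call, and stayed below 0 after median-ratio scaling. The mitochondrial share of the TPM in NP was 15%, 22.5% and 19.1% in siPTBP1+siPTBP2 cells, 9.31%, 20.2% and 19.3% in siPTBP1 cells and 9.68%, 15.6% and 13.7% in siGFP cells. It was thus higher in siPTBP1+siPTBP2 than in siGFP cells in 3 of 3 replicates and higher in siPTBP1 than in siGFP cells in 2 of 3, and its part in the values of the MCM2-7 genes was not tested. Of the 45 members 32 were below 0 in NP for siPTBP1+siPTBP2 and 33 for siPTBP1, where the median of all genes was -0.01 in both. The share of all genes below 0 is not given, and both knockdowns are set against the same siGFP libraries. D cyclins ran from 0.18 to 0.53 in CY for siPTBP1+siPTBP2 and from 0.22 to 0.65 for siPTBP1, the largest value being that of Ccnd1. Ccnd1 in CY had 124, 77.1 and 103 TPM in siPTBP1+siPTBP2 cells, 134, 82.6 and 113 TPM in siPTBP1 cells and 64.7, 62.5 and 79.5 TPM in siGFP cells, a difference of 0.53 for siPTBP1+siPTBP2 and 0.65 for siPTBP1 (limma, adjusted p = 1 in both). Transcription kinases ran from -0.05 to 0.33 in CH, from -0.36 to 0.02 in NP and from -0.37 to 0.40 in CY for siPTBP1+siPTBP2. The 2 knockdowns were also set against each other. The contrast of siPTBP1+siPTBP2 over siPTBP1 called 0 of 45 members in CH (0.107% of all genes), 0 in NP (0.00485%) and 0 in CY (0%), with 0 at an unadjusted p under 0.05 in limma in each fraction.

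Marker sums of other cell types differed between knockdown and siGFP libraries in several lists, and the endoderm sums did not overlap in any fraction. The 4 endoderm genes Gata4, Gata6, Sox17 and Foxa2, none at 0 in any library, summed in CY to 3.84 to 5.19 TPM in siPTBP1+siPTBP2 cells, 3.55 to 4.72 TPM in siPTBP1 cells and 1.67 to 2.53 TPM in siGFP cells. In CH they summed to 4.46 to 6.08 TPM in siPTBP1+siPTBP2 cells, 4.29 to 5.19 TPM in siPTBP1 cells and 2.8 to 3.74 TPM in siGFP cells. In NP they summed to 4.67 to 7.25 TPM in siPTBP1+siPTBP2 cells, 5.13 to 6.32 TPM in siPTBP1 cells and 2.47 to 4.39 TPM in siGFP cells. Gata4 and Foxa2 had higher means in both knockdowns than in siGFP cells in every fraction. In NP of siPTBP1+siPTBP2 cells mean Sox17 was lower than in siGFP cells (0.677 against 0.783 TPM) and Gata6 was nearly equal (0.933 against 0.927 TPM). No library held more than 4.22 TPM of any of the 4, so the sums rest on low values. The 3 mesoderm markers summed in CY to 3.97 to 6.41 TPM in siPTBP1+siPTBP2 cells, 4.36 to 10.4 TPM in siPTBP1 cells and 3.41 to 3.91 TPM in siGFP cells, with no overlap of either knockdown with siGFP, and overlapped siGFP in CH and NP. The 4 fibroblast markers summed in CH to 56 to 126 TPM in siPTBP1+siPTBP2 cells, 48.3 to 72.3 TPM in siPTBP1 cells and 81 to 154 TPM in siGFP cells, so siPTBP1 did not overlap siGFP in the fraction where Cdk17 was called with the block. The genes did not move together there. Mean Col1a1 (26.7 against 63.9 TPM) and Col1a2 (14.1 against 21.4 TPM) were lower in siPTBP1 than in siGFP cells. Mean Col3a1 (3.8 against 2.99 TPM) and Thy1 (19 against 17.5 TPM) were higher. In NP the 4 summed to 39.3 to 68.7 TPM in siPTBP1+siPTBP2 cells, 37.9 to 74.1 TPM in siPTBP1 cells and 30.7 to 49.6 TPM in siGFP cells. The 5 neural markers summed in CY to 216 to 300 TPM in siPTBP1+siPTBP2 cells, 209 to 223 TPM in siPTBP1 cells and 181 to 226 TPM in siGFP cells. Tubb3 made up most of these sums, with means of 225, 187 and 182 TPM in the same order. Mean Sox1 was 3.63, 3.28 and 0.843 TPM, Nes 15.1, 16.5 and 8.77 TPM and Neurod1 1.59, 1.75 and 1.09 TPM. Pax6 was slightly lower in the knockdowns, at 6.82, 6.85 and 6.97 TPM. The 7 stem cell markers summed in CH to 740 to 1084 TPM in siPTBP1+siPTBP2 cells, 740 to 1129 TPM in siPTBP1 cells and 1023 to 1331 TPM in siGFP cells. In CY, Pou5f1 made up most of the sum, with means of 1669, 1498 and 1448 TPM in the same order. Mean Zfp42 was 197, 230 and 376 TPM there and mean Nanog 77.8, 98.6 and 138 TPM. Sox2, Esrrb, Klf4 and Tfcp2l1 also had lower means in CY of both knockdowns than of siGFP cells. In bulk RNA fewer cells of a type and less RNA per cell cannot be told apart, and the part of these markers in the values of Cdk17, E2f2 and E2f3 was not tested.

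The partners of these genes gave a like picture. Of 52 genes of 6 further lists (origin licensing and the CMG helicase, CDK inhibitors, pocket and DP proteins, switches of CDK1, mitotic regulators and partners of the transcription kinases), all were tested and 0 were called in any knockdown contrast against siGFP. At an unadjusted p under 0.05 limma had 1 in CH, 2 in NP and 0 in CY for siPTBP1+siPTBP2, and 0 in CH, 1 in NP and 0 in CY for siPTBP1. In NP 46 of the 52 were below 0 for siPTBP1+siPTBP2 and 44 for siPTBP1. Their median was -0.19 in both, against -0.01 over all genes in both. All 17 licensing genes were below 0 in NP in both knockdowns, and none was called, with or without the block. The share of all genes below 0 is not given. Both knockdowns are set against the same siGFP libraries, so the counts of the 2 are not independent. The part of the mitochondrial share of NP in these values was not tested. With the block 3 genes were called lower, 1 of 52 in NP for siPTBP1 (1.88% of all genes called), and 2 in NP (1.84%) and 2 in CY (2.65%) for siPTBP1+siPTBP2. Cdkn1c, an inhibitor of CDK2, averaged 41.4 ± 9.8 TPM in NP of siPTBP1+siPTBP2 cells, 41.7 ± 7.43 TPM in NP of siPTBP1 cells and 69.5 ± 14.8 TPM in NP of siGFP cells (SD, n = 3 each; limma with the block, adjusted p = 0.0335 and 0.0415, and 0.616 and 0.684 without it). Rbl1, which encodes the pocket protein p107, averaged 2.82 ± 2.05 TPM in CY of siPTBP1+siPTBP2 cells, against 5.07 ± 2.5 TPM in CY of siGFP cells (SD, n = 3 each; limma with the block, adjusted p = 0.00478, and 1 without it). Mnat1, a subunit of the CDK7 kinase, averaged 17.5 ± 9.32 TPM in CY of siPTBP1+siPTBP2 cells, against 26.5 ± 11.3 TPM in CY of siGFP cells (SD, n = 3 each; limma with the block, adjusted p = 0.0451 in CY and 0.0394 in NP, and 1 without it in both).

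Between CH and CY of siGFP cells 19 of these 52 genes were called higher and 3 lower (28 and 6 with the block, 8 and 19 after median-ratio scaling). Of all genes 57.9% were called higher and 8.08% lower (65.4% and 11.5% with the block, 38.9% and 21.8% after scaling), so the higher calls of the lists made up a smaller share than those of all genes. The lists had a median of 0.49 against 0.95 over all genes. The partners of the transcription kinases had 5 of 8 called higher, a share close to that of all genes (4 higher and 2 lower after scaling), and a median of 1.96. Ccnl1, a cyclin of CDK11, averaged 215 ± 95.5 TPM in CH and 8.12 ± 3.8 TPM in CY, a difference of 4.53 (limma, adjusted p = 4.32e-07), followed by Ccnl2 at 3.76 and Ccnt2, a cyclin of CDK9, at 2.59. Of 5 pocket and DP genes 3 were called higher (1 after scaling), led by Rbl2 at 2.83, Rb1 at 1.62 and Rbl1 at 1.29. Of 17 licensing genes 5 were called higher and 2 lower (1 and 6 after scaling): Cdc7, the kinase that fires origins, rose by 2.53, Orc3 by 2.29 and Orc4 by 2.07, while the GINS subunits Gins2 (-1.28) and Gins4 (-1.06), which sit in the helicase with MCM2-7, were lower. Of 5 switches of CDK1 3 were called higher (1 higher and 2 lower after scaling), Pkmyt1 (1.88), Cdc25c (1.07) and Cdc25b (0.98), and of 10 mitotic regulators 3 (1 higher and 5 lower after scaling), Bub1 (2.21), Fbxo5 (1.31) and Aurkb (1.24). Of 7 CDK inhibitors 1 was called lower (4 after scaling), Cdkn1c at -0.95.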

How the data were processed

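Gene levels were TPM values that the authors deposited, 1 table for all 27 libraries of polyA+ RNA (TruSeq Stranded mRNA, per the labels' protocols). STAR, kallisto and mm10 are named in the submitters' processing notes without versions. TPM keeps no depth, so read numbers are unknown and no counting intervals can be given. A library's TPM are shares of its own fraction. Genes with at least 1 TPM in at least 3 libraries (20611) were tested on log2(TPM + 1), a scale that understates changes of low genes, with limma 3.58.1 in R 4.3.3. The fit held 9 group means with trended, robust variances (18 residual degrees of freedom), and Benjamini-Hochberg adjustment ran over all tested genes in each of 16 contrasts. A gene was called at an adjusted p under 0.05. The fit without the block was checked on simulated data. That simulation used independent noise in each library and held no effect of replicate number, so it does not cover the split between replicates.

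Replicates are called biological in the series. The fit without the block treats all libraries as independent, so its p-values measure a spread that holds differences shared by libraries of the same replicate number. The fit with the block takes these shared differences out of the spread. Libraries with the same replicate number deviated together: over 108 pairs the lowest correlation of deviations was 0.130 and the median 0.365, so the numbers were taken to pair the libraries, from the data and not from the labels. Alternatives were a replicate block, a pseudocount of 0.1, no filter, a filter on 9 libraries, median-ratio scaling, fits of only the groups compared, and leaving out each replicate or library. Library values are given for the most abundant member of each role in siGFP CY, for up to 3 members a role called higher and 3 called lower in CH than in CY, and for members called between knockdown and siGFP only with the block. E2f3, Cdk6, Cdk14, Cdk9 and Ccnd1 in the knockdowns were chosen after their values were seen. The members, lists and tests were chosen with earlier results of these data known. Gene spans came from GENCODE M21 (GRCm38) and promoters from RefSeq.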

Additional observations from a re-analysis of the deposited data

How the results depend on the processing

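Counts of called members depended on scaling, on the block and on single replicates. Median-ratio scaling gave, for CH over CY, 8 higher and 15 lower in siGFP cells, 13 and 13 in siPTBP1 cells, and 10 and 15 in siPTBP1+siPTBP2 cells. It gave 9 and 4 for CH over NP, and 0 and 3 for NP over CY. With the replicate block, NP over CY had 6 higher and 3 lower, and CH over CY had 5 lower in siGFP cells, 7 in siPTBP1 cells and 6 in siPTBP1+siPTBP2 cells. The block also added 1 member higher for siPTBP1 in CH and 1 for siPTBP1+siPTBP2 in CY, and CH over NP had 32 higher. For NP over CY, no filter left 0 higher, fitting only the groups compared left 1 higher, and a pseudocount of 0.1 gave 1 lower. No filter left 1 lower for CH over NP, and only the groups compared left 1 lower for CH over CY in siPTBP1+siPTBP2 cells. Scaling turned the sign of Ccnd2 (-0.05), Mcm5 (-1.0), Cdk9 (-0.45), E2f4 (-0.50), Cdk17 (-0.03), Cdk20 (-0.12), Cdk2 (-0.28), E2f5 (-0.52), Mcm7 (-0.96), Cdk6 (-0.75), Ccnb1 (-1.02), Mcm3 (-0.78) and E2f8 (-0.78) between CH and CY. In siGFP cells the factors were 1.34, 1.604 and 1.466 in CH and 0.5405, 0.8199 and 0.7611 in CY. Dividing by them lowered CH against CY for each of these genes, so the turned signs follow from the factors. What set the factors of the fractions apart was not tested.

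Leaving out a replicate or a library gave, for CH over CY, 17 to 25 higher and 0 to 7 lower in siGFP cells, 18 to 28 and 0 to 8 in siPTBP1 cells, and 20 to 27 and 1 to 7 in siPTBP1+siPTBP2 cells. It gave 12 to 28 and 0 to 3 for CH over NP, 0 to 2 and 0 to 7 for NP over CY (7 lower without replicate 1), and 0 to 1 higher in CH for either knockdown. For most of these fits the share of all genes called is not given, so the ranges do not show whether members lost more calls than other genes. Signs turned for Ccnb1 (-0.27 to 0.37), Ccne1 (-0.41 to 0.05), E2f1 (-0.14 to 0.15), E2f8 (-0.05 to 0.45), Mcm2 (-0.58 to 0.08), Mcm4 (-0.47 to 0.22), Mcm5 (-0.16 to 0.35) and Mcm7 (-0.06 to 0.34). Read depth is unknown, so its limit on low genes cannot be given.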

Other observations

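Across the 45 tested members the difference between CH and CY in siGFP cells was higher for genes with a lower level in CY (Spearman's rho -0.69, and -0.39 over all 20611 genes tested), where both measures share the CY values. With other gene properties the rho over members was 0.35 for gene span (0.00 over all genes), 0.24 for the number of exons (0.05), 0.20 for transcript length (0.11) and -0.25 for transcript GC content (-0.23). The 31 members with an annotated retained-intron transcript had a median difference of 0.62, against 1.11 for the 14 members without one. Over all genes these medians were 0.99 (8074 genes) and 0.93 (12507 genes). Genes share libraries and are not independent replicates, so these values are descriptions.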
